A study of Mus musculus with 24 samples.

Results

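The 7 genes Igll1, Vpreb1, Vpreb2, Vpreb3, Cd79a, Cd79b and Blnk encode the pre-B cell receptor (pre-BCR) components and the adaptor that couples the receptor to its downstream enzymes. They were taken by symbol from the 24421 genes counted in every library, and all 7 were found. The 24 libraries came from 2 sorted bone marrow populations in 3 mice of each of 4 genotypes. Common lymphoid progenitors (CLPs) were sorted as Lin-IL-7R+ cells, and B cell progenitors as B220+IgM-IL-7R+ cells. The genotypes were Plcg1+/+Plcg2+/+ (WT), Plcg1-/-Plcg2+/+ (G1KO), Plcg1+/+Plcg2-/- (G2KO) and Plcg1-/-Plcg2-/- (DKO). Plcg1 and Plcg2 encode both isoforms of phospholipase C gamma. The floxed Plcg1 allele was deleted by Mx1-Cre, an interferon-inducible Cre active in blood-forming and other cells, after poly(I:C) injection of young adult donor mice. Plcg2-/- was a germline deletion. Donors had a 129xC57BL/6 mixed background, and their marrow was studied in irradiated CD45.1+ recipients. The number of donors behind the 3 mice of a genotype is not known, so the tests measure the spread between these mice.

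The pre-BCR is the first antigen receptor of the B lineage. An immunoglobulin heavy chain pairs with the surrogate light chain, which is made of lambda5 (Igll1) and a VpreB protein (Vpreb1 or Vpreb2). CD79a and CD79b (Igα and Igβ) carry the signalling motifs, and BLNK links the kinase SYK to BTK and PLCγ2. Surrogate light chain genes are characteristic of pro-B and early pre-B cells, and are switched off as pre-B cells mature, whereas Cd79a and Cd79b stay on in mature B cells. Vpreb3 encodes a protein of the VpreB family that binds heavy chains inside the cell.

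By the GENCODE annotation of GRCm38 (mm10), Igll1 lies on the minus strand at chr16:16860671-16863985 and Vpreb1 beside it, also on the minus strand, at chr16:16868403-16870843, with 4417 bases between them. Vpreb2 lies on the plus strand of the same chromosome at chr16:17980428-17981273, 1109584 bases beyond Vpreb1. Vpreb3 is at chr10:75943057-75949657, Cd79a at chr7:24897381-24902197, Cd79b at chr11:106311341-106314762 and Blnk at chr19:40928927-40994535. Of the 50-base windows in the longest Vpreb1 transcript, 31.2% also occurred in Vpreb2, and 32.8% of those of Vpreb2 occurred in Vpreb1. The 2 transcripts matched at 671 of 686 aligned bases (97.81%). How the authors' counting treated reads that fit both genes is not given in the sources used here, so that the split of reads between Vpreb1 and Vpreb2 is uncertain. For the other members this share was 8.31% in Cd79a (all in one unnamed gene, Gm32220), 0.602% in Blnk and 0% in Igll1, Vpreb3 and Cd79b.

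The stretches before the RefSeq start sites of 3 surrogate light chain genes and of Cd79a are shown because the results compare the first 3 with the Cd79 genes. RefSeq promoter sequence (GRCm38.p6) was matched for 6 of the 7 members. Each stretch reads 5′ to 3′ on the strand of its gene and ends before the start of its protein-coding GENCODE transcripts. The Vpreb1 stretch lies inside the annotated span of Vpreb1 given above. Capitals mark CCCNNGGG (the core bound by EBF1), CACCTG (an E-box bound by E2A) and TGGGAA (bound by Ikaros), on either strand.
Igll1, chr16:16863986-16864235, minus strand: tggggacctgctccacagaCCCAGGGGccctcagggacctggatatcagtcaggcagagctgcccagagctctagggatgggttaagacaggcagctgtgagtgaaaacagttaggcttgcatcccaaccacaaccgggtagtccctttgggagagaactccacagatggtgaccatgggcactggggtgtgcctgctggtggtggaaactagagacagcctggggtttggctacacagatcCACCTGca
Vpreb1, chr16:16869256-16869505, minus strand: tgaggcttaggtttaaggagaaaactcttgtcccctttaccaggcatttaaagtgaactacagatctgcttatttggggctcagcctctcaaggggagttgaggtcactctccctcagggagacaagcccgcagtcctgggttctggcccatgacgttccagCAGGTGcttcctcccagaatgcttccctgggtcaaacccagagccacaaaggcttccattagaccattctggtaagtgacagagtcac
Vpreb2, chr16:17980315-17980427, plus strand: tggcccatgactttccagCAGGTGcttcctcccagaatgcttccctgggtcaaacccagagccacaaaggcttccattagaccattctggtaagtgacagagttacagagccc
Cd79a, chr7:24897247-24897380, plus strand: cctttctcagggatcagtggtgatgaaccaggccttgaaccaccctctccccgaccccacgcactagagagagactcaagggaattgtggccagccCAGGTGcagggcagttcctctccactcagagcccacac
CACCTG was found in all 4 stretches, on the plus strand in Igll1 and as its reverse complement in the others. CCCNNGGG was found only in the Igll1 stretch among these 4. Among 32851 promoter windows of 250 bases, 17.2% held CACCTG, 11.8% CCCNNGGG and 21.6% TGGGAA. The stretches of Vpreb2 (113 bases) and Cd79a (134 bases) are shorter than these windows. The last of these motifs was in none of the stretches shown, but was found at -64 in the full Vpreb2 window. The last 106 bases of the Vpreb1 stretch matched the start of the Vpreb2 window at 104 positions (98.1%), and that shared piece holds the same E-box. No shared piece of that length was found between Igll1 and Vpreb1 (10 bases at best). These matches describe letters and not binding.

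Gene-assigned reads per library ran from 4232345 to 33219995 for CLPs and from 1479582 to 25057223 for B cell progenitors. The share of reads outside genes was 17.9% to 45.2% for CLPs and 59.9% to 87.3% for B cell progenitors, so the populations did not overlap in this measure. Plcg2 stood at 196 to 282 normalized CPM (reads scaled to library size) in WT CLPs and 98.6 to 115 in DKO CLPs, and at 211 to 247 in WT and 72.1 to 110.7 in DKO B cell progenitors. Plcg1 levels overlapped between DKO CLPs (87.5 to 185 CPM) and WT CLPs (101 to 113 CPM), and gene-level counts do not resolve a floxed exon. In each population all 6 Plcg1-/- libraries lay above the 6 others in Xist and below them in Y-linked transcripts, so Plcg1 genotype and sex cannot be told apart, whereas DKO and G1KO are alike in this respect. Flt3, which marks CLPs, was between 25.8 and 90.0 CPM in 7 of the 12 libraries labelled CLP. Flt3 reached 735 CPM in the WT CLP library of mouse 1. The summed level of 6 CLP markers was 1710 CPM in that library. It was 1391 and 1493 CPM in the G1KO and G2KO CLP libraries of mouse 2, and 563 to 957 CPM in the other CLP libraries. These G1KO and G2KO libraries also had the lowest summed level of the 7 members in their groups (1279 and 1160 CPM). Mpo, a granule enzyme of myeloid progenitors, was at 638 CPM or more in all 24 libraries, and the summed level of 13 myeloid markers ranged from 1567 to 9524 CPM. In bulk RNA, fewer cells of a type and less RNA per cell cannot be told apart.

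Transcripts of all 7 genes were already abundant in the libraries labelled CLP. Per kilobase of exon, Cd79b, Cd79a and Vpreb3 were the most abundant, with medians over 12 libraries of 312, 287 and 254 CPM per kb in CLPs and 360.3, 335 and 356 in B cell progenitors. Igll1 (163 and 208) and Vpreb1 (181 and 186) came next, and Blnk (43.9 and 70.7) and Vpreb2 (34.0 and 29.4) were the least abundant. Members next to each other in these groups overlapped widely between libraries, for example Cd79a between 73.5 and 812 and Cd79b between 89.1 and 549 CPM per kb in CLPs. The lowest read count behind any member value was 16 (Vpreb2 in 1 G2KO B cell progenitor library), so no member was near the limit of detection.

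**Figure D1:**
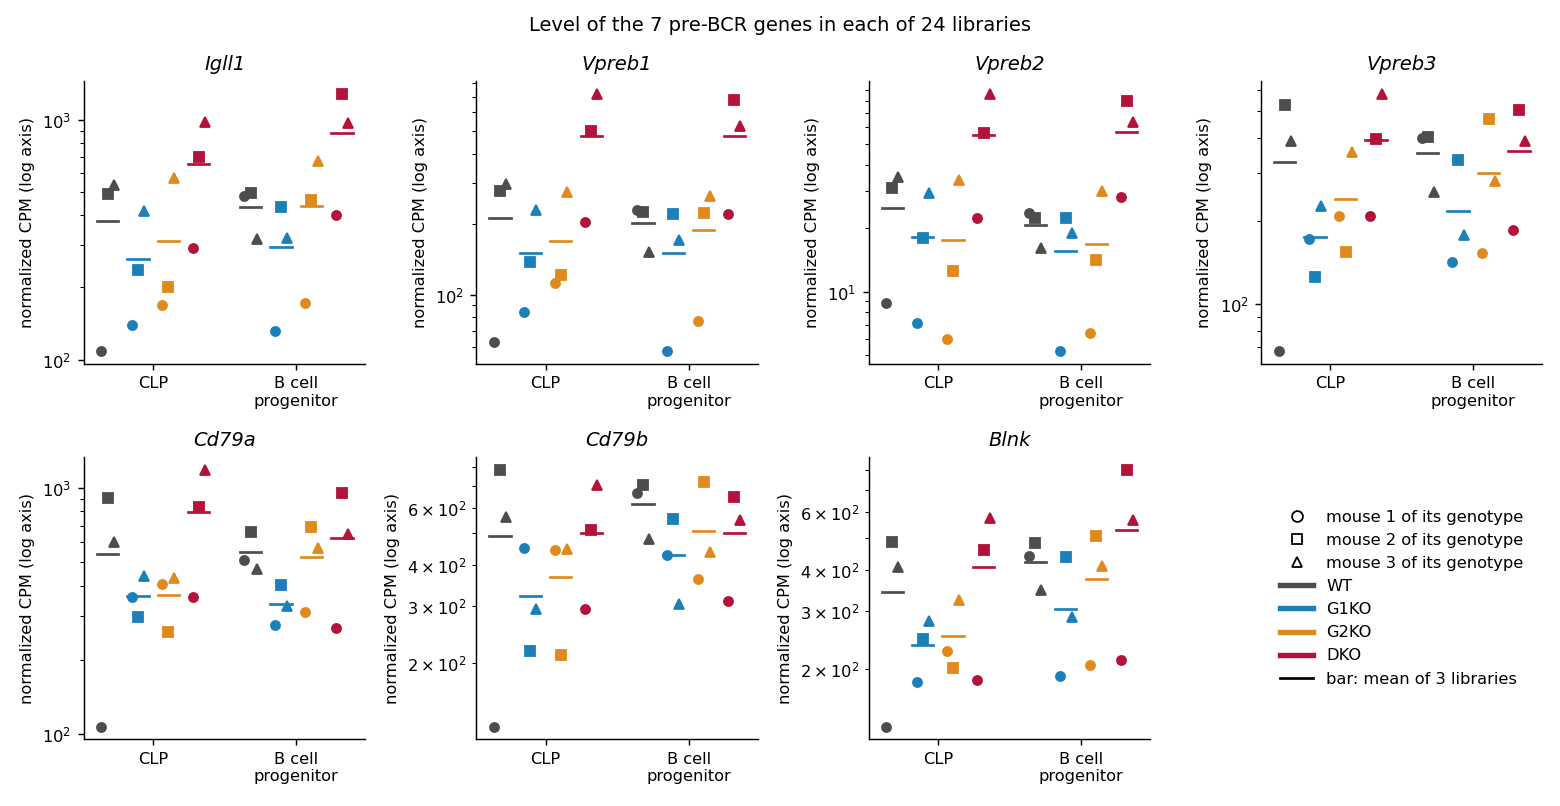
Normalized CPM (log axis) of each of the 7 genes in the 24 libraries, by population and genotype, with marker shape for the mouse and a bar for the mean of 3 libraries. The means of all genes but Cd79b in B cell progenitors are highest in DKO, the mouse 1 library is the lowest of its group in most knockout groups, and the mouse 1 WT CLP library lies below the other WT CLP libraries for every gene.

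Igll1, Vpreb1, Vpreb2, Vpreb3, Cd79a and Blnk had their highest group means in DKO mice in both populations, and Cd79b in CLPs. The largest fitted differences between DKO and WT were those of the 3 surrogate light chain genes. In B cell progenitors Igll1 stood at 483, 498 and 318 CPM in WT, 131, 434 and 323 in G1KO, 172, 465 and 676 in G2KO, and 401, 1289 and 975 in DKO. The DKO mean was 888 ± 450.5 CPM (SD, n = 3) and the WT mean 433 ± 99.98, and the lowest DKO library lay within the WT range. Vpreb1, in the same libraries and order, stood at 231, 226 and 152 CPM in WT, 57.6, 222 and 172 in G1KO, 77.0, 223 and 264 in G2KO, and 221, 675 and 527 in DKO. Its lowest DKO library again lay among the WT libraries. Vpreb2 stood at 23.5, 22.3 and 16.1 CPM in WT, 5.25, 22.3 and 18.98 in G1KO, 6.38, 14.1 and 30.02 in G2KO, and 28.2, 79.8 and 63.4 in DKO. Vpreb2 was the only member whose WT and DKO libraries did not overlap in B cell progenitors, where 19.2% of all genes tested did not overlap.

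None of these differences passed the test. With edgeR's quasi-likelihood test across all genes, DKO against WT in B cell progenitors gave log2 fold changes of 1.03 ± 0.53 (SE) for Igll1, 1.22 ± 0.53 for Vpreb1 and 1.48 ± 0.53 for Vpreb2, with adjusted p of 0.461, 0.379 and 0.282. A call required an adjusted p no higher than 0.05 together with a log2 fold change of 0.5 or more in either direction. By this rule 0 of the 7 members were called, against 0.893% of the 15001 genes tested (134 genes). DESeq2 also called 0 members. At an unadjusted p of 0.05, Vpreb1 and Vpreb2 passed, as did 12.3% of all genes.

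The knockout libraries of mice numbered 1 stood apart in these values, whereas the WT B cell progenitor library of mouse 1 did not. In the knockout groups mouse 1 had the lowest Igll1 and Vpreb1 of its group in both populations, and in the DKO B cell progenitor group it was the lowest for all 7 members. These mouse 1 knockout libraries also had the lowest Il7r of their groups, 134 to 159 CPM, and the highest myeloid marker sums, 9524, 8563 and 8692 CPM in G1KO, G2KO and DKO CLPs and 8463, 8355 and 7633 CPM in the matching B cell progenitors. The WT libraries of mouse 1 had myeloid sums of 2808 CPM in CLPs and 1579 CPM in B cell progenitors, the latter the lowest of its group. The number 1 therefore does not mark one deviation shared by all genotypes. The part of myeloid RNA in the result was not tested. In an alternative chosen after seeing the data, all libraries of mice numbered 1 were left out. With 2 mice per genotype, edgeR then called 3 of 7 members higher in DKO than in WT B cell progenitors, against 0.884% of 16977 genes. These were Igll1 (log2 fold change 1.46, adjusted p = 0.0411), Vpreb1 (1.66, adjusted p = 0.0121) and Vpreb2 (1.90, adjusted p = 0.0259). The DKO B cell progenitor library left out was the lowest of its group for these 3 genes. The WT one left out was the highest of its group for Vpreb1 (231 CPM) and Vpreb2 (23.5 CPM). The choice of libraries therefore widened these differences by construction, and the 3 calls add no support for them. Leaving out the mice numbered 2, or those numbered 3, gave 0 called members (0.317% and 0.0567% of genes called) and 0 at an unadjusted p of 0.05, and leaving out any 1 library also called 0.

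In CLPs all 7 members were highest on average in DKO, and the 3 surrogate light chain genes are given first. Igll1 stood at 109, 494 and 536 CPM in WT, 140, 237 and 416 in G1KO, 169, 201 and 573 in G2KO, and 291, 699 and 984 in DKO. Vpreb1 stood at 63.0, 277 and 296 CPM in WT, 84.1, 138 and 229 in G1KO, 113, 121 and 273 in G2KO, and 204, 498 and 718 in DKO. Vpreb2 stood at 8.83, 30.9 and 35.1 CPM in WT, 7.15, 17.9 and 29.3 in G1KO, 5.97, 12.6 and 33.9 in G2KO, and 22.4, 56.4 and 86.4 in DKO. In every genotype the mouse 1 library was the lowest for these 3 genes, and WT and DKO overlapped for each.

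For DKO against WT in CLPs the log2 fold changes were 0.79 ± 0.67 for Igll1, 1.15 ± 0.62 for Vpreb1 and 1.14 ± 0.73 for Vpreb2, and 0 of 7 members were called by edgeR (0.0921% of 15209 genes were; lowest adjusted p among members 0.707). No member passed at an unadjusted p of 0.05, and DESeq2 called 0. Without the WT library of mouse 1, the lowest of its group for all 7 members, these 3 values were 0.34, 0.71 and 0.72. The DKO effect in B cell progenitors minus that in CLPs had a median over the 7 members of 0.07 on the log2 scale, with 0 of 7 members called (0% of 17212 genes) and 0 passing at an unadjusted p of 0.05 in edgeR or called by DESeq2.

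DKO was next set against each single-deficient genotype. In B cell progenitors, DKO exceeded G1KO, the comparison between genotypes alike in sex-linked transcripts, by 1.56 ± 0.54 for Igll1, 1.63 ± 0.54 for Vpreb1 and 1.86 ± 0.55 for Vpreb2 on the log2 scale. Vpreb2 alone of the members did not overlap between these groups, as did not 16.8% of all genes tested. The edgeR adjusted p were 0.190, 0.182 and 0.167, with 0 of 7 members called against 0.213% of genes. At an unadjusted p of 0.05, 4 members and 16.6% of genes passed. DESeq2, the test the authors used, called all 3 (adjusted p 0.0420, 0.0336 and 0.0265), in a fit that called 5.35% of genes. In edgeR without the mice numbered 1, Cd79a was called besides these 3, so 4 of 7 against 1.93% of genes. Against G2KO in B cell progenitors the values were 1.00 ± 0.53, 1.32 ± 0.54 and 1.84 ± 0.57, with 0 of 7 called (0.153% of genes; lowest adjusted p 0.357), and 0 called by DESeq2. At an unadjusted p of 0.05, 2 members and 11% of genes passed.

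In CLPs the difference between DKO and G1KO was 1.30 ± 0.67 for Igll1, 1.65 ± 0.63 for Vpreb1 and 1.60 ± 0.74 for Vpreb2 on the log2 scale. Against G2KO it was 1.06 ± 0.67, 1.48 ± 0.62 and 1.70 ± 0.75. No member was called in either (0 of 7 against 0.0263% and 0.0526% of genes), and DESeq2 called 0. At an unadjusted p of 0.05, 1 and 2 members passed, against 4.29% and 7.54% of genes. In these 2 comparisons libraries with the same mouse number deviated together, although the number labels different mice. With the number as a block in edgeR, Vpreb2 was called in both. Its blocked log2 fold change was 1.62 against G1KO (adjusted p = 0.0212) and 1.78 against G2KO (adjusted p = 0.0149), with 1 of 7 members called against 0.112% and 0.171% of genes. The blocked fit also held the WT CLP libraries, whose same-numbered pairs with DKO correlated at r = -0.123 to 0.227. The numbers do not pair those samples, and the shared deviations were measured in the same libraries. The 2 blocked calls of Vpreb2 are therefore uncertain.

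**Figure D2:**
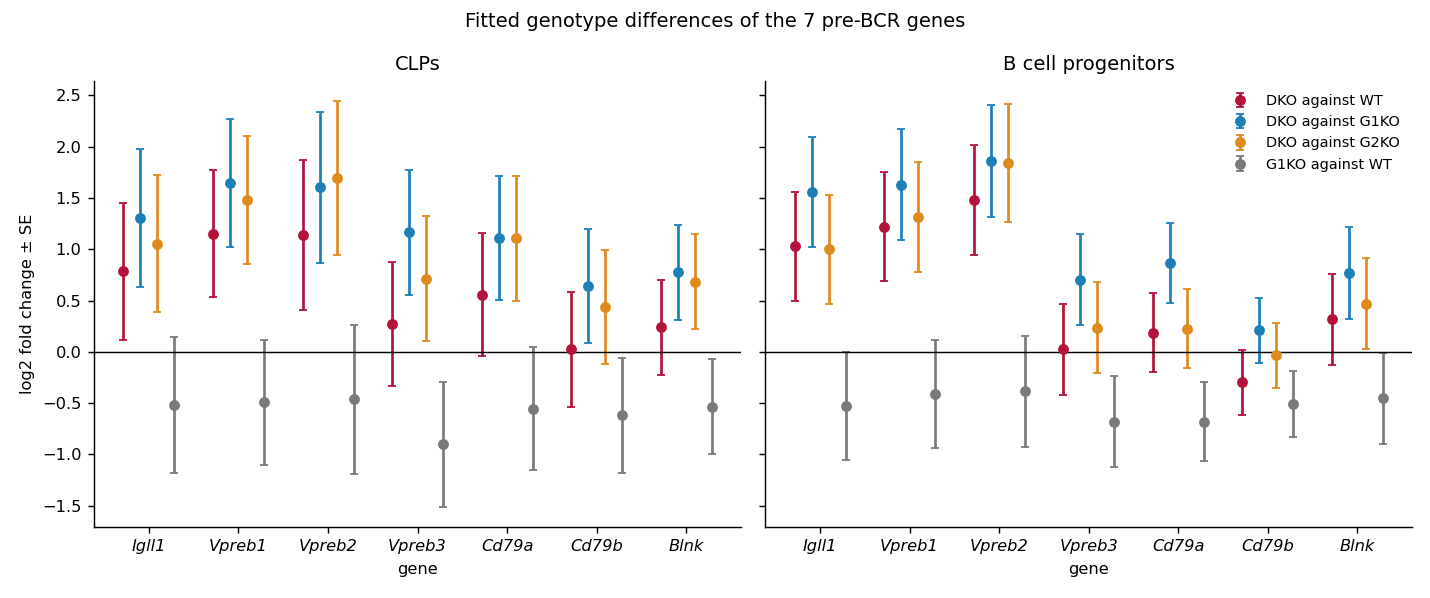
Log2 fold change (points) with its standard error (bars) of each gene in 4 genotype comparisons, in CLPs (left) and B cell progenitors (right). Vpreb1 and Vpreb2 have the highest DKO values in every comparison, Cd79b the lowest, and the G1KO values against WT are below 0 for all 7 genes.

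The signalling chain genes Cd79a and Cd79b had smaller fitted differences between DKO and WT than the surrogate light chain genes, and the gap between genes was tested only through within-library ratios. In B cell progenitors Cd79b stood at 665, 705 and 479.5 CPM in WT, 429, 552 and 304 in G1KO, 363, 719 and 439.7 in G2KO, and 309.8, 648 and 552 in DKO. One DKO library lay below the WT range and the others within it, and all 4 genotypes overlapped. DKO against WT gave a log2 fold change of -0.30 ± 0.32 (adjusted p = 0.719 in edgeR). Cd79a stood at 509, 662 and 467 CPM in WT, 277, 401 and 331 in G1KO, 312, 692 and 569 in G2KO, and 270.1, 955 and 646 in DKO. All 3 G1KO libraries lay below all WT libraries for Cd79a, as they did for 11.2% of all genes, with a log2 fold change of -0.68 ± 0.39 that did not pass (adjusted p = 0.472 in edgeR). DKO against WT gave 0.19 ± 0.38 for Cd79a.

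In CLPs Cd79a stood at 107, 904 and 599 CPM in WT, 358, 297 and 437 in G1KO, 407, 259 and 429.9 in G2KO, and 359, 837 and 1183 in DKO. Cd79b stood at 127.5, 786 and 563 CPM in WT, 450.1, 218 and 293 in G1KO, 446, 211 and 448 in G2KO, and 292, 513 and 703 in DKO. The mouse 1 WT library was the lowest of the 12 CLP libraries for both genes. DKO against WT gave 0.56 ± 0.60 for Cd79a and 0.03 ± 0.56 for Cd79b, and without that library 0.05 and -0.45.

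Vpreb3 and the adaptor Blnk also had smaller fitted differences between DKO and WT than the surrogate light chain genes. Vpreb3 ranged from 67.6 to 579 CPM over CLP libraries and from 142 to 504 over B cell progenitor libraries. Its DKO mean in B cell progenitors was 361 ± 161 CPM and its WT mean 353 ± 85.2. Blnk ranged from 134 to 575 CPM in CLPs and from 190.3 to 805 in B cell progenitors, with means there of 528 ± 298 in DKO and 423 ± 69.1 in WT. DKO against WT gave log2 fold changes of 0.27 ± 0.60 and 0.24 ± 0.46 in CLPs and of 0.03 ± 0.44 and 0.32 ± 0.44 in B cell progenitors for Vpreb3 and Blnk.

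All 7 members had lower fitted levels in G1KO than in WT in both populations, and none passed the test. Because the members' levels were correlated over libraries and both populations came from the same mice, these signs are not separate observations. The median log2 fold change over the members was -0.54 in CLPs and -0.51 in B cell progenitors, beside -0.01 and 0.06 over all genes tested. Vpreb3 had the lowest value in CLPs (-0.90 ± 0.61). The edgeR fit called 0 of 7 members in both comparisons, against 0.00658% of genes (CLPs) and 0.06% (B cell progenitors), and 0 members passed at an unadjusted p of 0.05 or were called by DESeq2 in either. In G2KO against WT the median was -0.44 in CLPs and -0.15 in B cell progenitors, with 0 of 7 called by edgeR or DESeq2 and 0 at an unadjusted p of 0.05 (0% and 0.0467% of genes called).

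A contrast of DKO and WT with both single-deficient genotypes tested whether the 2 deficiencies together differed from the sum of each. This non-additive value was above 0 for all 7 members in both populations, from 1.05 (Cd79b) to 2.16 (Vpreb2) in CLPs and from 0.47 (Cd79b) to 2.23 (Vpreb2) in B cell progenitors on the log2 scale. The edgeR fit called 0 of 7 (0.0197% and 0.0267% of genes called; lowest adjusted p 0.862 and 0.208), DESeq2 called 0 in both, and 1 member in CLPs and 2 in B cell progenitors passed at an unadjusted p of 0.05, against 4.77% and 15.3% of genes. This contrast shares its DKO and WT libraries with the comparisons above. The members' levels were correlated over libraries and both populations came from the same mice, so the 7 signs are not separate observations. Without the mice numbered 1, Vpreb1 and Vpreb2 were called in B cell progenitors, but that fit called 13.9% of all genes.

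No member was called between the populations. In edgeR 0 of 7 were called between B cell progenitors and CLPs in any genotype, where 3.5% of genes were called in WT, 3.78% in G1KO, 3.21% in G2KO and 3.24% in DKO. The median log2 difference over the members was 0.11 in WT, 0.17 in G1KO, 0.47 in G2KO and 0.0042 in DKO, and 0 members passed at an unadjusted p of 0.05 or in DESeq2. Each mouse gave both populations, and with the mouse as a block 0 members were called as well. Without the block, 0 of 14 B lineage stage markers and 0 of 6 CLP markers were called between the populations in any genotype.

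All pairs of members were positively correlated across libraries. After subtracting the mean of each population from log2 CPM, Igll1 correlated with Vpreb1 at r = 0.987 and with Vpreb2 at r = 0.961 over the 24 libraries, and Cd79a with Vpreb3 at r = 0.945 and with Cd79b at r = 0.891. Igll1 correlated with Blnk at r = 0.907, with Vpreb3 at r = 0.859, with Cd79a at r = 0.830 and with Cd79b at r = 0.612. The lowest value of all pairs was 0.440, for Vpreb2 with Cd79b. The points share mice, libraries and depth, and Vpreb1 and Vpreb2 share sequence, so these values are descriptions. The genes most like Igll1 were Vpreb1, Rras2 (r = 0.973) and Vpreb2. Among the genes most like Cd79a were Slamf6 (r = 0.945) and Vpreb3. Among those most like Cd79b were Pou2af1, a B cell coactivator (r = 0.933), and Ehd2 (r = 0.924). Among those most like Vpreb3 were Stambpl1 (r = 0.984) and Camk2d (r = 0.968). Vpreb2 was after Vpreb1 most like Mmrn1 (r = 0.964) and Ust (r = 0.963), and Blnk like Dck (r = 0.965), Foxo1 (r = 0.957) and Dnajc21 (r = 0.955).

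**Figure D3:**
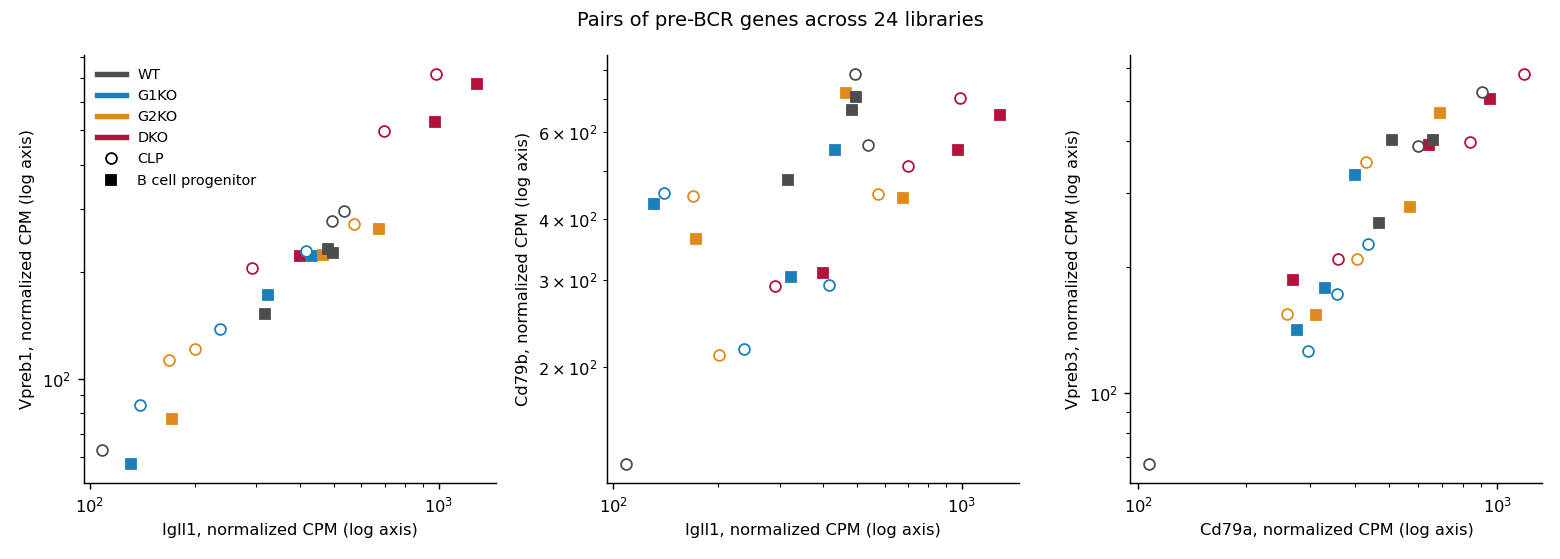
Normalized CPM (both axes log) of Vpreb1 against Igll1, Cd79b against Igll1 and Vpreb3 against Cd79a, with one point for each of 24 libraries. Vpreb1 follows Igll1 closely, whereas Cd79b spreads more widely at a given Igll1 level, and 4 of the 6 DKO libraries have the highest Igll1 values.

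Within-library ratios remove what scales all B lineage transcripts of a library alike. These ratios were chosen after the levels had been seen, and 24 exact permutation tests were run on them. The summed CPM of Igll1, Vpreb1 and Vpreb2 over that of Cd79a and Cd79b was 1.12, 1.27 and 1.31 in DKO B cell progenitors. It was 0.628, 0.546 and 0.513 in WT, 0.275, 0.711 and 0.808 in G1KO, and 0.378, 0.498 and 0.961 in G2KO. All 3 DKO libraries, that of mouse 1 included, lay above the 9 others. The log2 difference was 1.15 (two-sided exact permutation test of 3 against 9 libraries, p = 0.00909, adjusted p = 0.0545), which did not pass after correction. Against WT alone it was 1.14 with p = 0.1, the smallest an exact test of 3 against 3 can give.

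In CLPs the DKO ratios of 0.796, 0.929 and 0.948 lay inside the range of the other 9 libraries (0.286 to 1.00), with a log2 difference of 0.52 (two-sided exact permutation test, p = 0.177, adjusted p = 0.282). The ratio was higher in the B cell progenitors than in the CLPs of the same mouse in 3 of 3 DKO mice, by 0.46 to 0.49 on the log2 scale. In the 9 other mice this difference lay between -0.54 and 0.20. The difference between the 2 sets of mice was 0.63 (two-sided exact permutation test, p = 0.00455, the smallest possible, adjusted p = 0.0364).

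The ratio of Igll1 to Vpreb1, both parts of the surrogate light chain, was compared in the same way. In CLPs it was 1.73, 1.78 and 1.81 in WT, 1.66, 1.72 and 1.82 in G1KO, 1.499, 1.65 and 2.10 in G2KO, and 1.42, 1.40 and 1.37 in DKO. The spread was widest in G2KO, and the 3 DKO CLP libraries lay below all 9 others, with a log2 difference of -0.32 (two-sided exact permutation test, p = 0.00455, the smallest possible, adjusted p = 0.0364). In B cell progenitors DKO ratios were 1.81, 1.91 and 1.85 against 1.88 to 2.56 elsewhere, a log2 difference of -0.21 (two-sided exact permutation test, p = 0.0227, adjusted p = 0.109). The ratio was higher in B cell progenitors than in CLPs of the same mouse in 12 of 12 mice, by 0.33 ± 0.14 (SD) on the log2 scale (two-sided exact sign-flip permutation test, p = 0.000488, the smallest possible, adjusted p = 0.0117). Counting Vpreb1 and Vpreb2 together gave -0.32 for the CLP difference and 0.34 for that between populations. The share of reads on no gene also differed between the populations without overlap, and was 17.9% to 23.5% in DKO CLPs against 22.2% to 45.2% in the other CLPs. Its part in these ratios was not tested.

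**Figure D4:**
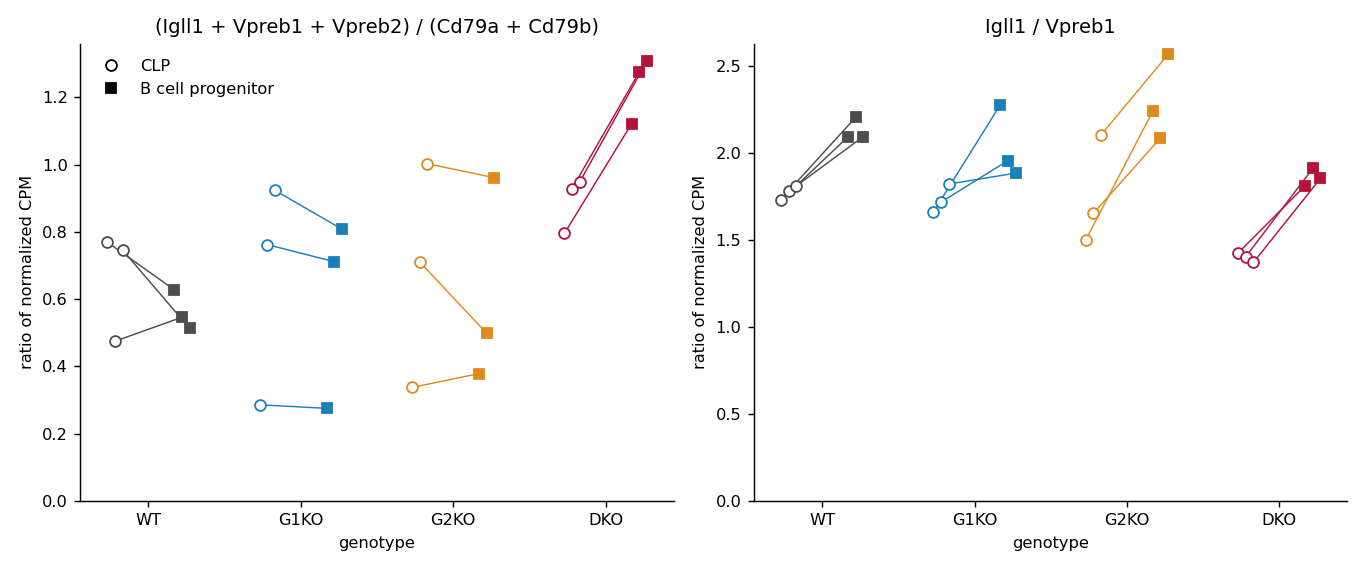
Ratio of summed Igll1, Vpreb1 and Vpreb2 CPM to summed Cd79a and Cd79b CPM (left) and of Igll1 to Vpreb1 CPM (right), by genotype, with CLP (open circles) and B cell progenitor libraries (filled squares) of one mouse joined by a line. DKO B cell progenitors lie above all others on the left, between 1.12 and 1.31, and on the right every line rises from CLPs to B cell progenitors.

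The reads on Vpreb2 were 0.0530 to 0.140 of those on Vpreb1 after normalization. In B cell progenitors the DKO libraries had values of 0.118 to 0.127 and the 9 others 0.0633 to 0.114, a log2 difference of 0.36 (two-sided exact permutation test, p = 0.0455, adjusted p = 0.171). This did not pass after correction, and rests on the uncertain split of shared reads.

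Genes around the pre-BCR were compared from lists that were fixed with earlier results known. Of 16 transcription factors known to act on B lineage genes, 2 fell in DKO against WT B cell progenitors in edgeR and 0 rose. In that comparison 0.893% of all genes tested were called. Ikzf3 (Aiolos, a repressor of surrogate light chain genes) fell from 250.5 ± 74.3 to 59.9 ± 19.1 CPM (log2 fold change -2.08 ± 0.38, adjusted p = 0.0233). Irf4, which acts in pre-B cells and on light chain genes, fell from 645 ± 135 to 111 ± 37.8 CPM (-2.53 ± 0.47, adjusted p = 0.0271). Ikzf1 (Ikaros) gave -0.91 ± 0.20 (adjusted p = 0.0655), and the activators Ebf1, Tcf3 (E2A) and Pax5 gave -0.18 ± 0.53, -0.58 ± 0.34 and -0.80 ± 0.34, none of them called by edgeR. In DKO against G1KO and against G2KO, 0 of the 16 were called in B cell progenitors by edgeR (0.213% and 0.153% of all genes were). In CLPs 0 of the 16 were called in DKO against WT, and Ikzf3 gave -0.82 ± 0.18 (edgeR adjusted p = 0.181). The list's median was -0.34 in B cell progenitors and -0.20 in CLPs, beside -0.02 and -0.03 over all genes.

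Of 38 genes of pre-BCR signalling, 4 fell in DKO against WT B cell progenitors and 0 rose, and 3 fell in CLPs. Over all genes tested, 0.893% were called in B cell progenitors and 0.0921% in CLPs. Blk, a SRC-family kinase, fell in both (log2 fold change -2.60 ± 0.29, adjusted p = 0.00139 in B cell progenitors, and -2.63 ± 0.35, adjusted p = 0.0257 in CLPs). So did Rasgrp1, a RAS activator driven by diacylglycerol (-2.67 ± 0.50 and -1.60 ± 0.24 in edgeR), and the deleted Plcg2 itself (-1.35 ± 0.16 and -1.10 ± 0.16). The adaptor Dok3 fell in B cell progenitors (-1.16 ± 0.20, adjusted p = 0.0180 in edgeR). Syk, the kinase that binds the CD79 chains, gave -1.18 ± 0.29 (adjusted p = 0.107) and Btk 0.07 ± 0.17 in B cell progenitors. The list's median was -0.04 in B cell progenitors and 0.03 in CLPs. Against G1KO, Blk and Plcg2 fell in B cell progenitors and 0 of 38 passed in CLPs in the edgeR fits. These fits called 0.213% and 0.0263% of all genes. Against G2KO, 0 of 38 were called in B cell progenitors or CLPs, where 0.153% and 0.0526% of all genes were. Blk in B cell progenitors stood at 202, 216 and 188 CPM in WT, 71.8, 116 and 44.7 in G2KO, and 24.3, 36.6 and 38.1 in DKO.

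Of 16 inhibitors of BCR signalling, Cd22, a lectin that recruits a phosphatase, was the only one called by edgeR, and fell in B cell progenitors of DKO against WT (-1.62 ± 0.24, adjusted p = 0.00747 in edgeR). Of 14 markers of B lineage stages, Il2ra (CD25, a pre-B cell marker), Cd24a and Cd2 fell in the same comparison and 0 rose. In this comparison 0.893% of all genes tested were called. Il2ra went from 65.2 ± 14.6 to 6.65 ± 3.20 CPM (-3.40 ± 0.51, adjusted p = 0.00818 in edgeR). Of 3 measured recombination genes (Rag1, Rag2 and Dntt) 0 were called. The immunoglobulin constant region genes Ighm, Igkc, Iglc1, Iglc2 and Iglc3 were not found by symbol among the genes counted. Of 13 myeloid markers 0 were called in DKO against WT in either population, with medians of 0.82 in CLPs and 0.92 in B cell progenitors and summed levels of 2499 to 4328 CPM in WT and 3712 to 8692 in DKO CLPs. In B cell progenitors these sums were 1579 to 4866 in WT and 2880 to 7633 in DKO. Of 6 CLP markers, 9 T and NK cell markers, 8 plasmacytoid dendritic cell markers and 4 tested erythroid and megakaryocyte markers, 0 were called in DKO against WT in either population. Their median log2 fold changes were -0.44, -0.65, -0.29 and 1.06 in CLPs, and 0.84, 0.81, 0.80 and 0.81 in B cell progenitors. The summed plasmacytoid markers there stood at 927 to 1562 CPM in DKO and 630 to 795 in WT, with no overlap. Of single genes tested there, 19.2% did not overlap either. The part of these cell types in the members' differences was not tested.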

How the data were processed

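Per the labels, RNA-seq of 24 libraries (3 mice, 4 genotypes, 2 populations) was aligned with STAR 2.5.0a. The deposited values are raw read counts per gene, made by the authors against mm10. The counting program, its strand setting and its treatment of reads fitting 2 genes are not given in the sources used here. Reads assigned to no gene were left out of library sizes. Counts were normalized by TMM, filtered with filterByExpr and tested with edgeR 4.0.16 (R 4.3.3) by its quasi-likelihood test with Benjamini-Hochberg adjustment over all genes tested. Genotypes were compared within each population (12 libraries a fit) and populations in one fit of 24. Levels are CPM from the 24-library TMM factors. DESeq2 1.42.0, RLE factors, no filter, a replicate block and leaving out libraries were alternatives. The members and gene lists were chosen with earlier results of these data known. Named besides the members were list genes called in a described comparison and a fixed set of regulators and signalling genes. Likeness is Pearson's r of log2 CPM (prior count 2) centred by population. Ratios of summed CPM were tested by exact permutation. On simulated data with 200 changed genes, the fit of DKO against WT recovered 38% of 2-fold and 88% of 4-fold changes in CLPs and 50% and 90% in B cell progenitors. The changed genes were drawn at random and not matched to the spread of the members, so these shares do not measure the power for the members. Libraries sharing a mouse number were checked for shared deviations. Same-numbered libraries correlated at r = 0.346 to 0.612 between G1KO and DKO CLPs, 0.204 to 0.484 between G2KO and DKO CLPs and 0.130 to 0.253 between G2KO and DKO B cell progenitors, above 0.1 for every pair. By the labels each mouse gave one library of either population. Biopython 1.88 aligned sequences. One gene of the marker lists is not reported here.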

Additional observations from a re-analysis of the deposited data

Results flagged for a closer look

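The ratio of summed Igll1, Vpreb1 and Vpreb2 to summed Cd79a and Cd79b differed in its change between populations. On the log2 scale, the B cell progenitor minus CLP value within a mouse was 0.63 higher in the 3 DKO mice than in the 9 others (two-sided exact permutation test, p = 0.00455, the smallest possible, adjusted p = 0.0364 over 24 tests). The DKO mice lay between 0.46 and 0.49 and the other mice between -0.54 and 0.20. The ratio was chosen after the levels had been seen.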

How the results depend on the processing

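Under RLE factors and no filter on low counts 0 members were called in all 17 comparisons, and leaving out any 1 library called none. DESeq2 called 3 members in DKO against G1KO B cell progenitors. Leaving out the mice numbered 1 was an alternative chosen after seeing the data, and removed the lowest DKO B cell progenitor library for every member. It called 3 members in DKO against WT, 4 in DKO against G1KO and 2 in the non-additive contrast, all in B cell progenitors. Without the mice numbered 2 or 3, also chosen after seeing the data, 0 were called in those comparisons.

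With the replicate block, 1 member (Vpreb2) was called in DKO against G1KO, in DKO against G2KO and in the non-additive contrast of CLPs, and the block changed no other call. In comparisons with WT, and of DKO with G1KO in B cell progenitors, same-numbered libraries did not all deviate together, so there the numbers do not pair the samples. The blocked fit of CLPs held the WT libraries too, so its calls against G1KO and G2KO are also uncertain. With the block, Vpreb3 in DKO against WT B cell progenitors was -0.11.

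Some directions turned. Without the mice numbered 1, Cd79b was -0.14 in DKO against WT CLPs, 0.0086 in DKO against WT B cell progenitors and 0.063 in DKO against G2KO B cell progenitors, and Vpreb2 was 0.037 in G1KO against WT B cell progenitors. Without a filter, Cd79b was 0.0081 in DKO against G2KO B cell progenitors. Without the mice numbered 2, Cd79a was 0.19 and Cd79b 0.12 in G1KO against WT CLPs, Vpreb3 was -0.17 and Cd79a -0.072 in DKO against WT B cell progenitors, and Cd79b was 0.11 in DKO against G2KO B cell progenitors. Without the mice numbered 3, Cd79b was -0.20 in DKO against WT CLPs and -0.015 in DKO against G1KO B cell progenitors, and Vpreb3 was -0.22 in DKO against WT B cell progenitors. Leaving out 1 library at a time turned the sign of 11 of 78 values. In DKO against WT CLPs the ranges were -0.23 to 0.81 for Vpreb3, -0.45 to 0.56 for Cd79b and -0.16 to 0.61 for Blnk. These turned without the WT library of mouse 1 or the DKO library of mouse 3. Cd79a ranged from -1.07 to 0.056 in G1KO against WT CLPs, and turned without the WT library of mouse 2. In DKO against WT B cell progenitors they were -0.28 to 0.34 for Vpreb3, -0.25 to 0.55 for Cd79a and -0.11 to 0.70 for Blnk. In DKO against G2KO B cell progenitors they were -0.063 to 0.74 for Vpreb3, -0.20 to 0.60 for Cd79a and -0.24 to 0.32 for Cd79b. The light chain to Cd79 ratio between populations within mice ranged from -0.042 to 0.052. The cause of these changes was not tested.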
